A study of Mus musculus with 2 samples.

Results

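The cells described here are the Cd3-positive T cells of the mouse retinal pigment epithelium (RPE) and the choroid and sclera dissected with it. They were chosen by their own transcripts: a kept cell was a T cell if it held at least 2 unique molecular identifiers (UMIs, each counting 1 captured RNA molecule) of Cd3d, Cd3e and Cd3g together, fewer than 10 UMIs of the RPE gene Rpe65, less than 2000 CPM (a gene's UMIs over the cell's UMIs, times 1000000) of the fibroblast gene Dcn, and less than 10000 CPM of the MHC class II genes Cd74, H2-Aa, H2-Ab1 and H2-Eb1 together. This rule found 423 T cells among 35627 kept cells, 276 of 20189 in the control library and 147 of 15438 in the Dox library. A kept cell had more than 500 UMIs, 200 to 6000 genes and a mitochondrial share below 20%.

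The study asked how low-dose doxorubicin, a DNA-damaging drug used there to bring on RPE senescence, changes single-cell transcriptomes. Control mice received a subretinal injection of 1 µl PBS, and Dox mice received 1 µl of doxorubicin at 100 ng/µl. All animals were male C57BL/6J mice, 3 months old, and tissue was taken 7 days after the injection. The 10 eyes of 5 mice were pooled into 1 droplet 5′ single-cell library per condition, so animals cannot be told apart, the subretinal drug reached only part of the RPE, and treatment, injection and library cannot be told apart either. There are no replicates. No test was therefore possible, and every interval given below is a 95% interval of counting error only (exact Poisson for CPM, Clopper-Pearson for shares, exact conditional binomial for ratios).

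T cells recognise antigen through a receptor made of an alpha and a beta chain or of a gamma and a delta chain, and the CD3 chains encoded by Cd3e, Cd3d and Cd3g carry its signal into the cell. Cells with the CD8 co-receptor typically kill target cells or release chemokines, and cells with CD4 typically help or restrain other immune cells. The retina itself is largely kept free of T cells, whereas the vascularised choroid behind it holds sparse resident and circulating ones.

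The 3 genes that chose the cells lie together on mouse chromosome 9. In the annotation of the mm10 genome, Cd3g occupies chr9:44969572-44980431 on the minus strand, Cd3d chr9:44981786-44987339 on the plus strand and Cd3e chr9:44998740-45009627 on the minus strand. In RefSeq on GRCm38.p6, the starts of Cd3g and Cd3d are 1355 bases apart and point away from each other. The 250 bases upstream of each RefSeq start are shown because these 3 genes define the cells; capitals mark AGGAAG or its reverse complement CTTCCT, letters that hold the GGAA core bound by ETS family factors.
Cd3e: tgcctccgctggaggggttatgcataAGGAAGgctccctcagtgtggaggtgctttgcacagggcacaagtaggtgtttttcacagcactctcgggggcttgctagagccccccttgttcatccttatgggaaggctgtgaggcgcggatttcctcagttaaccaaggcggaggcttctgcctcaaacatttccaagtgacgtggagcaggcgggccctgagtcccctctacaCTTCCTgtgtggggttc
Cd3d: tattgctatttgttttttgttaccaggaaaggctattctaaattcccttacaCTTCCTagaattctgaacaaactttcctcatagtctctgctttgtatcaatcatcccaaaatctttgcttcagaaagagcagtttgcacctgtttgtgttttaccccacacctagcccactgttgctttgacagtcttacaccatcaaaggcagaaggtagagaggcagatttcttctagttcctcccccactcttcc
Cd3g: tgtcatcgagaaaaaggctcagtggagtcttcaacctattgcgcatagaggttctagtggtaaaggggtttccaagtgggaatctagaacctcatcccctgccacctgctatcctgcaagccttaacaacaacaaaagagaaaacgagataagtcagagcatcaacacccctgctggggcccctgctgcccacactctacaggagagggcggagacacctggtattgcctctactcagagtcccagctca
The Cd3e sequence is the minus strand of chr9:45009612-45009861, the Cd3d sequence the plus strand of chr9:44981536-44981785 and the Cd3g sequence the minus strand of chr9:44980432-44980681. Both strands were searched, which found AGGAAG at 2 places for Cd3e, 1 for Cd3d and 0 for Cd3g, and the TATA-box letters TATAAA at 0 places in each. For comparison, AGGAAG was found in 9686 of 32851 RefSeq upstream windows of the same length (29.5%) and TATAAA in 4063 (12.4%). A match describes letters in these windows and nothing more.

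The control T cells had a median of 3695.5 UMIs and 1494 genes per cell and summed to 1154344 UMIs. The Dox T cells had a median of 3886 UMIs and 1528 genes and summed to 634877 UMIs. The median member held 9 and 8 Cd3 UMIs, and the highest 35 and 36. The 2 libraries shared 441 cell barcodes, but no barcode belonged to a T cell in both.

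The cells at the edge of the rule are given as a description only. The 48 control and 21 Dox cells with 1 Cd3 UMI that met every other limit held 450.8 and 558.6 CPM of Cd52, and 45.7 and 175.6 CPM of Lck. The 18 control and 9 Dox members with exactly 2 Cd3 UMIs held 1733 and 1091 CPM of Cd52, and 342.7 and 280.5 CPM of Lck. Members with 3 or more held 2450 and 2012 CPM of Cd52. Of 7 T cell genes looked at here (Cd52, Trac, Trbc2, Lck, Cd2, Thy1 and Lat), 7 were higher just inside the rule than just outside it in control and 6 in Dox. Trbc2 went the other way in Dox, with 6 UMIs in the cells just outside (95.8 CPM) and 0 in the members with exactly 2 Cd3 UMIs. With so few cells the Dox intervals overlapped for every one of these genes except Lat, at 79.8 CPM (25.9 to 186) just outside and 561 CPM (332 to 887) just inside.

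Markers that the rule did not use were far higher in these cells than elsewhere. Cd52, a small surface glycoprotein of lymphocytes, stood at 2417 CPM (control) and 1966 CPM (Dox) in T cells against 82.2 and 58.7 CPM in all other kept cells, which is 29.4-fold and 33.5-fold. It does not set T cells apart from innate lymphocytes without Cd3 UMIs, which held 2127 and 2484 CPM. At least 1 Cd52 UMI was found in 97.5% of control T cells (94.8 to 99.0%) and 93.2% of Dox T cells, against 3.20% and 2.40% of fibroblasts, which should lack it and which were sequenced more deeply (median 4873 and 5432 UMIs). Lat, the membrane adaptor of the T cell receptor, was at 544 and 539 CPM against 2.31 and 1.06 CPM. The other kept cells include 81 control and 25 Dox cells with at least 2 Cd3 UMIs that failed a limit of the rule, and these held 172 of the 265 control and 53 of the 105 Dox Lat UMIs outside the T cells. Of the 12 further T cell markers listed, 11 reached the 50 CPM in T cells of both libraries needed to be compared. All 11 were at least 8-fold higher in T cells in both libraries, against 8.77% of all 2429 genes compared. Genes entered only through their level in the T cells, so these counts are a description with nothing read from them. The remaining marker, Trbc1, was at 39.8 and 50.4 CPM. The defining Cd3 genes themselves were at 874 and 810 CPM (Cd3e), 795 and 754 CPM (Cd3g) and 732 and 663 CPM (Cd3d), which the rule fixes.

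Transcripts of other cell types were also found in the T cells. The B cell gene Cd79a and the macrophage gene Adgre1 had 0 UMIs in T cells of both libraries. The list of 5 B cell markers nevertheless summed to 81.4 CPM (control) and 91.4 CPM (Dox) in T cells, above the 13.5 and 10.1 CPM in all other kept cells and close to the 82.6 and 86.7 CPM in innate lymphocytes. Nearly all of it was the immunoglobulin heavy chain constant gene Ighm, with 84 UMIs in 55 control and 51 UMIs in 35 Dox T cells. The macrophage list summed to 246 CPM (control) and 309 CPM (Dox) in T cells, against 18872 and 19377 CPM in cells rich in C1q and 242 and 119 CPM in fibroblasts. The fibroblast list summed to 883 and 781 CPM and the hemoglobin list to 3.47 and 83.5 CPM in T cells. The melanosome gene Pmel had a UMI in 87.3% and 47.6% of T cells and in 82.9% and 41.2% of fibroblasts. Rpe65 had a UMI in 62.3% and 76.9% of T cells and in 60.5% and 74.7% of fibroblasts. At an equal 1000 UMIs per cell the shares were less alike in control, where Pmel was found in 53.3% of T cells (47.2 to 59.3%) and 36.4% of fibroblasts (33.6 to 39.3%) and Rpe65 in 29.9% (24.6 to 35.7%) and 18.4% (16.2 to 20.8%). In Dox they were 15.2% and 11.1% for Pmel and 31.0% and 26.9% for Rpe65. The fibroblast shares at this depth come from every 10th fibroblast, 1136 cells in control and 821 in Dox. The macrophage gene Lyz2 was found at that depth in 9.85% of control T cells (6.59 to 14.01%) and 9.51% of control fibroblasts (7.86 to 11.4%). The control shares of Pmel and Rpe65 were thus higher in T cells at equal depth, and that of Lyz2 overlapped.

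Apart from the Cd3 genes, which were left out here because they chose the cells, the genes that most set the T cells apart were mostly genes of antigen receptor segments, co-receptors, effector proteins and signalling proteins. Among the 20 leading genes, Gstp3, a glutathione S-transferase, and the uncharacterised Gm8369 belong to none of these, at 351-fold and 418-fold and at 249-fold and 347-fold. Trbv15, a variable segment of the receptor beta chain, had 119 UMIs in control T cells and 0 in all other control cells, at least 3939-fold higher when 3 counts are taken as the floor. In Dox it had 39 UMIs in T cells and 1 elsewhere, a log2 ratio between 10.01 and 17.91. Other segments among the 20 leading genes were Trbv12-1, Trbv3, Trbv1, Trbv12-2, Trbv13-2 and the constant segment Trbc2; reads of near-identical segments such as Trbv12-1 and Trbv12-2 or Trbv13-2 and Trbv13-3 may be shared, so their values are uncertain. Cd8a and Cd8b1, the chains of the CD8 co-receptor, stood at 185 and 167 CPM and at 397 and 400 CPM, against 0.489 and 0.182 CPM and 1.45 and 0.515 CPM in the other cells. Cd247, the zeta chain that pairs with CD3, was 259-fold and 306-fold higher than in other cells. Pdcd1, the inhibitory receptor PD-1, was at 139 and 106 CPM, 255-fold and 490-fold higher.

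Effector genes were also among the 20. Il17a, an inflammatory cytokine, stood at 124 CPM (control) and 85.1 CPM (Dox) in T cells against 0.410 and 0.0202 CPM in all other cells. Gzmk, a granzyme, was at 109 and 89.8 CPM against 0.384 and 0.202 CPM. Cd40lg, the helper ligand for CD40, was at 85.8 and 52.0 CPM. Some genes of receptor signalling separated less. Lcp2 was 23.6-fold and 26.6-fold higher, Ptprc (CD45) 22.6-fold and 32.7-fold, and Prkcq 2.62-fold and 2.44-fold. The plot of the 20 leading genes shows both libraries side by side.

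**Figure D1:**
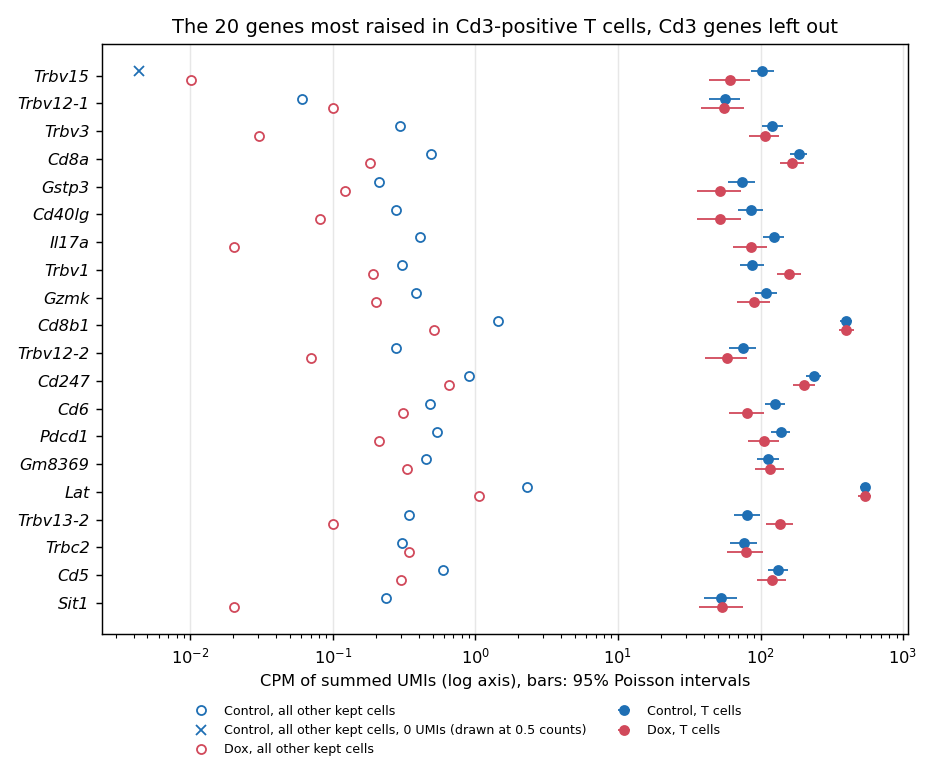
CPM of summed UMIs (log axis) of the 20 genes with the largest ratio of T cells to all other kept cells once Cd3d, Cd3e and Cd3g are left out, with filled points for T cells and open points for other cells in the control and Dox libraries; bars are 95% Poisson intervals and a cross marks 0 UMIs. All 20 genes lie above 50 CPM in the T cells of both libraries, whereas the open points lie below 3 CPM.

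T cells were less frequent in Dox than in control. They were 1.37% of kept control cells (1.21 to 1.54%) and 0.952% of kept Dox cells (0.805 to 1.12%), a ratio of 0.697 (0.566 to 0.854). Over 6 other ways to choose the cells this ratio lay between 0.630 and 0.797. Macrophages rich in C1q had a similar ratio of 0.646 (0.546 to 0.763), and fibroblasts, the most abundant type, one of 0.971. Innate lymphocytes without Cd3 UMIs went the other way, with 0.352% in control and 0.428% in Dox, a ratio of 1.22 (0.856 to 1.72). T cells were therefore 79.5% of T cells and innate lymphocytes together in control (74.9 to 83.7%) and 69.0% in Dox (62.3 to 75.2%), a ratio of the T cell number per innate lymphocyte of 0.573 (0.381 to 0.864). Dissociation and library preparation move with the condition, and their part in these shares was not tested.

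Cells with the CD8 co-receptor were the most numerous class with a co-receptor UMI. A UMI of Cd8a or Cd8b1 without one of Cd4 was found in 111 control T cells (40.2%, 34.4 to 46.3%) and in 59 Dox T cells (40.1%, 32.1 to 48.5%), a ratio of 0.998 (0.715 to 1.38). Fibroblasts held a CD8 UMI in 0.163% and 0.0811% of cells. When every cell was thinned to 1000 UMIs, which kept 274 and 145 T cells, the CD8 share was 29.6% and 28.3%. The share of CD8 cells was thus almost the same in both libraries.

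A Cd4 UMI without a CD8 UMI was found in 30 control (10.9%, 7.45 to 15.2%) and 20 Dox T cells (13.6%, 8.51 to 20.2%), or 2.55% and 5.52% after thinning. Both co-receptors were seen in 3 control cells and 0 of 147 Dox cells. Neither was seen in 132 control (47.8%) and 68 Dox T cells (46.3%), or 67.9% and 66.2% after thinning. Of them, 71 and 41 held at least 2 beta chain (Trbv) UMIs, and 20 and 11 held a UMI of Trdc, the delta chain constant gene. The plot of detected genes gives these shares with their fibroblast background.

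**Figure D2:**
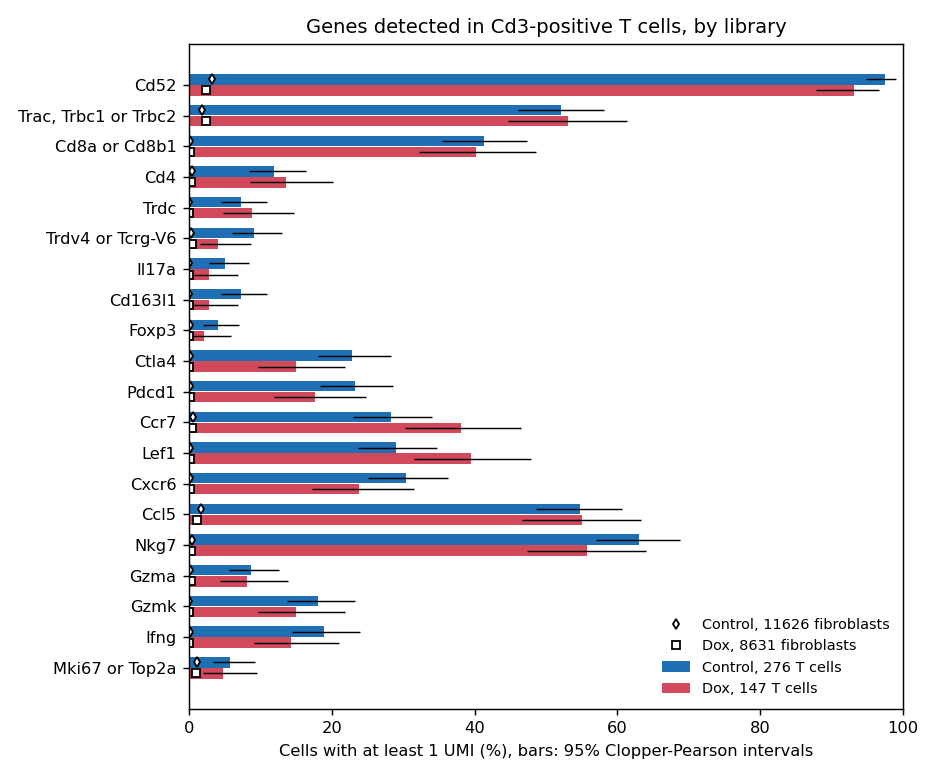
Percent of T cells with at least 1 UMI of each gene or pair of genes in the control (blue, 276 cells) and Dox (red, 147 cells) libraries, with 95% Clopper-Pearson intervals; diamonds and squares give the same share in fibroblasts. CD8 stands near 40% in both libraries, Ccr7 at 28.3% and 38.1%, and the fibroblast marks lie at 3.20% or below throughout.

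CD8 cells held more Ccl5, Nkg7 and Gzmk than the other T cells. Ccl5, a chemokine that draws T cells and monocytes, stood at 9701 CPM (control) and 8557 CPM (Dox) in CD8 cells, against 3940 and 3418 CPM in the other T cells. Nkg7, a cytotoxic granule protein, was at 1523 and 1189 CPM against 546 and 539 CPM. Gzmk was at 219 and 198 CPM, and CD8 cells held 85.7% and 96.5% of all Gzmk UMIs of T cells. The granzymes Gzma and Gzmb were also higher there in both libraries, at 371 and 668 CPM against 182 and 98.3 CPM and at 73.0 and 104 CPM against 31.8 and 33.7 CPM. The chemokine Ccl4 was at 126 and 226 CPM against 118 and 135 CPM. Xcl1, another chemokine, was lower in CD8 cells, at 193 and 57.5 CPM against 218 and 356 CPM. Cd40lg, by contrast, had 0 UMIs in control and 5 UMIs in Dox CD8 cells.

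Within CD8 cells, Ccr7, the receptor that guides naive and central memory T cells to lymph nodes, was at 456 CPM (control) and 689 CPM (Dox), a log2 ratio of 0.60 (0.31 to 0.88). Satb1, a chromatin organiser of T cell development, was at 54.7 and 136 CPM, a log2 ratio of 1.31 (0.57 to 2.09). Xcl1, a chemokine for cross-presenting dendritic cells, was at 193 and 57.5 CPM, a log2 ratio of -1.71 (-2.61 to -0.97), with UMIs in 27 of 111 and 7 of 59 cells. It went the other way in the T cells with no Cd4, Cd8a, Cd8b1, Trdv4 or Tcrg-V6 UMI, at 281 and 466 CPM, a log2 ratio of 0.73 (0.34 to 1.11), and over all T cells it was at 207 and 225 CPM. Gzma was at 371 and 668 CPM in 15 and 8 cells, where single cells held up to 46 and 54 UMIs. The CD8 differences in Ccr7, Satb1 and Xcl1 were spread over several cells, and that in Gzma rested on few.

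T cells with a Cd4 and no CD8 UMI, called CD4 cells here, were fewer than CD8 cells and their levels less certain. Of 11 control and 3 Dox T cells with a Foxp3 UMI, only 3 and 1 held a Cd4 UMI. The class thus need not hold every cell of the CD4 lineage, and its size is not read as the number of such cells. Cd40lg was at 168 CPM (control) and 149 CPM (Dox) in CD4 cells, and Icos, a co-stimulatory receptor, at 571 and 372 CPM. Klf2, a factor that keeps T cells circulating, was at 571 and 1203 CPM, a log2 ratio of 1.07 (0.63 to 1.52). Tcf7 was at 109.7 and 310.1 CPM, a log2 ratio of 1.48 (0.52 to 2.53). Ctla4, an inhibitory receptor of regulatory and activated cells, was at 293 and 99.2 CPM, a log2 ratio of -1.49 (-2.87 to -0.45), and 1 control cell held 19 of its 40 UMIs there. S100a4 was at 724 and 136 CPM, a log2 ratio of -2.35 (-3.46 to -1.51), and Ifng had 21 and 0 UMIs. Tyrobp and Fcer1g, adaptors better known from innate cells, had 0 UMIs in control and 20 and 18 in Dox. Single Dox cells held 19 and 18 of these. Klf2 and Tcf7 were thus higher, and S100a4 lower, in the 20 Dox than in the 30 control CD4 cells. No direction is read for Ctla4 in this class, because its control value leans on 1 cell.

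Another set of T cells carried the gamma chain segment Tcrg-V6 or the delta chain segment Trdv4, the pair typical of innate-like gamma delta T cells that make IL-17; this class was formed after its values were seen. In control 25 cells belonged to it (9.06%, 5.95 to 13.1%) and in Dox 6 cells (4.08%, 1.51 to 8.67%). Both segments were found in 17 and 4 of them. The share ratio was 0.451 (0.151 to 1.13), an interval that reaches past 1. Thinned to 1000 UMIs the shares were 7.66% and 3.45%. Without thinning, 0.258% and 0.336% of fibroblasts held such a UMI. Among innate lymphocytes the share was 15.5% (8.0 to 26.03%) and 13.6% (6.43 to 24.3%), above that of T cells, but after thinning it was 2.82% and 1.52%, below it, so that no order is read. Only 1 control and 2 Dox cells of the class had 2 or more Trbv UMIs. Trdv4 also had 14 and 10 UMIs in innate lymphocytes, where Tcrg-V6, Il17a and Cd163l1 had 0.

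These gamma delta cells carried most of the Il17a of the T cells. Il17a stood at 1195 CPM in control (994 to 1425) and 2380 CPM in Dox (1783 to 3113), against 18.1 and 1.63 CPM in the remaining T cells, and they held 86.7% and 98.1% of all Il17a UMIs of T cells. Cd163l1, a scavenger receptor of these cells, was at 906 and 1033 CPM, with every one of its T cell UMIs in this class in both libraries. Blk, a Src family kinase used in their development, was at 241 and 494 CPM, with 100% and 91.7% of its T cell UMIs there. The plot of classes shows these genes near the axis in the other T cells. Only 11 of the 25 control and 3 of the 6 Dox cells held an Il17a UMI, and single cells held up to 38 and 31.

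Some of their surface receptors also differed in level from the other T cells. Cxcr6, a receptor for the tissue chemokine CXCL16, was at 1224 and 1751 CPM against 123 and 111 CPM in the rest. Il7r, the receptor of the survival cytokine IL-7, was at 674.5 and 898 CPM against 225 and 269 CPM. Pdcd1 was at 482 and 269 CPM against 105 and 99.6 CPM, but its Dox value rests on 6 UMIs in 2 cells and its interval (98.9 to 586 CPM) reaches the level of the rest. Cxcr3 was not higher, at 86.7 CPM and 0 UMIs against 120 and 106 CPM. Ccr7 had 0 UMIs in both libraries, and Ccl5 was low, at 1002 and 1302 CPM against 6935 and 5831 CPM. Tmem176b, named after its values were seen, was at 1176 and 1347 CPM against 193 and 162 CPM.

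**Figure D3:**
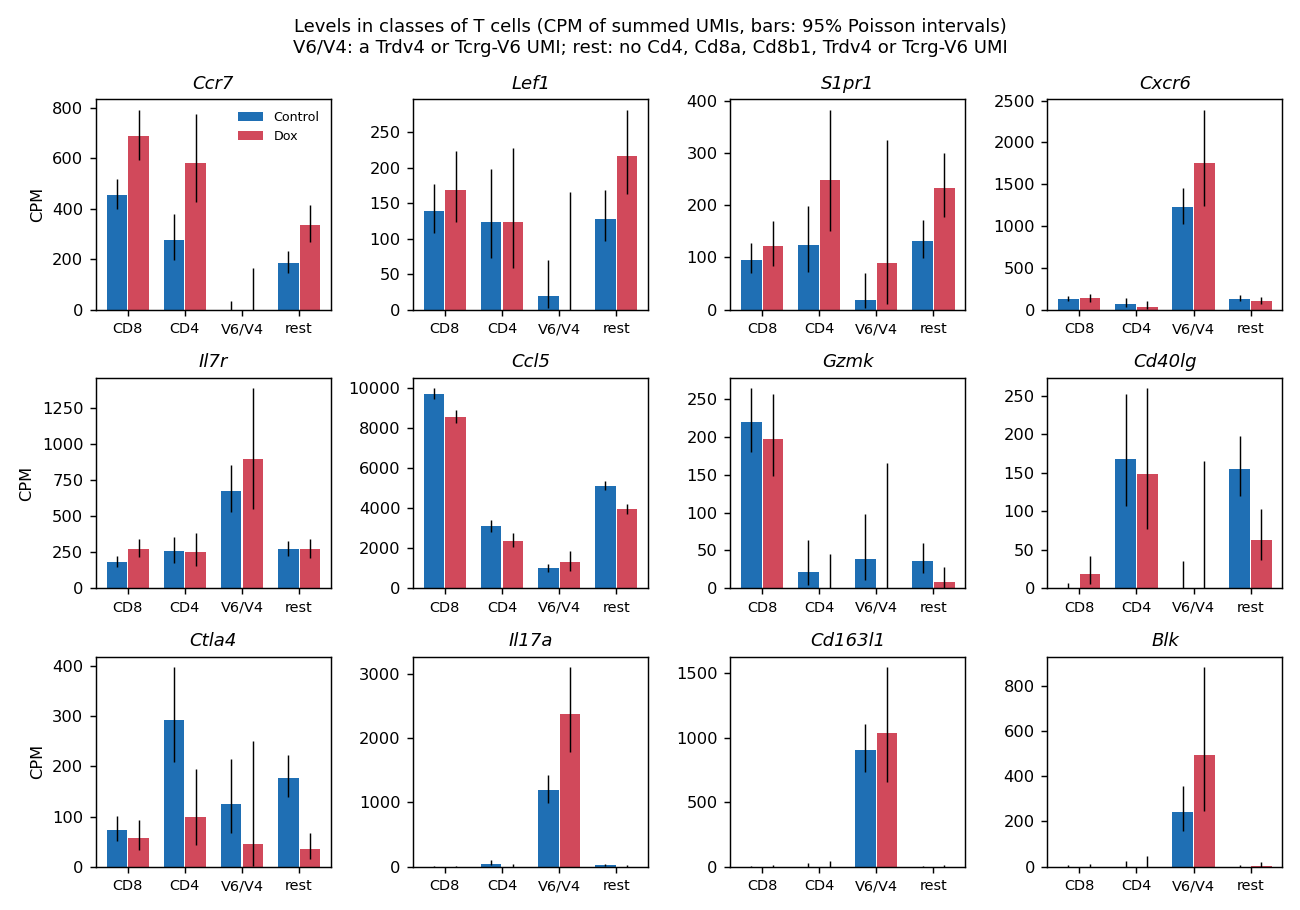
CPM of 12 genes in CD8 cells, CD4 cells, cells with a Trdv4 or Tcrg-V6 UMI (V6/V4) and the rest of the T cells, control in blue and Dox in red, with 95% Poisson intervals. Il17a, Cd163l1, Blk and Cxcr6 are highest in V6/V4, Ccl5 and Gzmk in CD8, and Ccr7 is higher in the Dox than in the control bar of CD8, CD4 and rest.

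The 108 control and 62 Dox T cells with no UMI of Cd4, Cd8a, Cd8b1, Trdv4 or Tcrg-V6, also a class formed after the values were seen, held less Ctla4, S100a4 and Cd40lg in Dox. They are not free of gamma delta T cell transcripts, since 8 and 7 of them held a Trdc UMI. Ctla4 stood at 177 CPM (control) and 35.5 CPM (Dox), a log2 ratio of -2.25 (-3.50 to -1.31), with UMIs in 25 and 8 cells. S100a4, a calcium-binding protein of memory and effector T cells, was at 366 and 138 CPM, a log2 ratio of -1.39 (-1.98 to -0.87). It went the other way in the cells with a Trdv4 or Tcrg-V6 UMI, at 906 and 1841 CPM, a log2 ratio of 1.03 (0.46 to 1.57). There 1 Dox cell held 24 of 41 UMIs. Cd40lg was at 155 and 63.1 CPM, a log2 ratio of -1.27 (-2.19 to -0.49). Foxp3, the factor that defines regulatory T cells, had 21 control UMIs and 3 Dox UMIs, in 8 and 2 cells. Icos was at 403 and 249 CPM, a log2 ratio of -0.69 (-1.14 to -0.27), and Gzma at 192 and 107 CPM, with UMIs in 8 and 3 cells. Il2ra, Il17a and Gzmk rested on few UMIs, with 10 and 0, 12 and 1, and 15 and 2. Other genes were higher in Dox in this class, with log2 ratios of 0.84 for Ccr7, 0.83 for S1pr1, 0.90 for Satb1 and 0.75 for Lef1. Their intervals lay above 0. Fcer1g, a signalling adaptor better known from innate cells, was at 408 and 477 CPM, well above the 81.1 and 82.6 CPM of CD8 cells.

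Markers of circulating and of tissue-homing T cells rarely met in the same cell. A Ccr7 UMI was found in 78 control T cells (28.3%, 23.03 to 33.97%) and 56 Dox T cells (38.1%, 30.2 to 46.5%), or 18.2% and 26.9% after thinning. A Cxcr6 UMI was found in 84 control (30.4%) and 35 Dox T cells (23.8%), or 13.9% and 12.4% after thinning. Both were found together in 1 control and 2 Dox cells, whereas Ccr7 and Lef1, a factor of naive T cells, were found together in 53 and 39 cells. Among CD8 cells, 43 of 111 in control (38.7%) and 27 of 59 in Dox (45.8%) held a Ccr7 UMI. The intervals of the Ccr7 share overlapped between the libraries.

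The beta chain segments showed a mixed population in both libraries. Of 35 Trbv segments in the files, 22 were seen in control T cells with 1344 UMIs in all and 19 in Dox T cells with 662 UMIs. T cells held 80.2% and 86.3% of all Trbv UMIs of kept cells, at 1164 and 1043 CPM against 2.89 and 1.06 CPM elsewhere. At least 2 UMIs of a single segment were found in 190 and 101 cells. Among these cells the most frequent leading segment in control was Trbv3, in 24 cells (12.6%, 8.26 to 18.2%), followed by Trbv13-2 in 19 (10.0%) and Trbv31 in 18 (9.47%). In Dox it was Trbv13-2, in 16 cells (15.8%, 9.33 to 24.4%), followed by Trbv3 in 14 (13.9%) and Trbv16 in 10. The inverse Simpson index, which counts how many equally frequent segments would give the same evenness, was 15.04 and 11.58. No segment led more than 15.8% of cells.

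Innate lymphocytes, chosen by natural killer receptor and granule genes and by the absence of Cd3 UMIs, were compared with the T cells directly. Of 2917 genes compared, 79 (2.71%) were at least 2-fold higher in T cells in both libraries and 112 (3.84%) at least 2-fold lower. These counts are a description with nothing read from them: a gene entered with 50 CPM in either cell type, so that one passing through a single cell type had to differ, and both cell types were chosen by such genes. Several T cell genes had 0 UMIs in innate lymphocytes, so that Cd8b1 was at least 36.8-fold and 38.4-fold higher, Cd8a at least 17.2-fold and 16.04-fold, Pdcd1 at least 12.9-fold and 10.1-fold, and Cd5, an inhibitor of receptor signalling, at least 12.4-fold and 11.5-fold. Ccr7 was at 299 and 510.3 CPM in T cells against 10.8 and 6.94 CPM, and Cxcr6 at 222 and 169 CPM against 25.1 and 24.3 CPM. The pore-forming gene Prf1, on the other hand, was at 25.1 and 31.5 CPM in T cells against 374 and 396 CPM, and Gzmb at 49.4 and 64.6 CPM against 485 and 756 CPM. Irf8 was at 18.2 and 25.2 CPM against 919.7 and 1048 CPM. Cd52 was within 2-fold in both cell types, at 2417 and 1966 CPM in T cells and 2127 and 2484 CPM in innate lymphocytes. It was higher in T cells in control, a log2 ratio of 0.18 (0.06 to 0.31), and lower in Dox, -0.34 (-0.47 to -0.20). Ccl5 was somewhat lower in T cells, at 6402 and 5672 CPM against 7868 and 8181 CPM. Its log2 ratios were -0.30 (-0.37 to -0.23) and -0.53 (-0.60 to -0.45).

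Between the libraries, few genes of the T cells differed by 2-fold. Of 4500 genes with at least 50 UMIs over both libraries, 30 (0.667%) were at least 2-fold higher and 75 (1.67%) at least 2-fold lower in Dox T cells, and the median log2 ratio of all was -0.03. These counts depend on how the cells are summed and filtered, from 2 to 51 and from 26 to 159 over 12 alternatives. The T cells summed to 1154344 UMIs in control and 634877 in Dox. A gene seen only in control thus passed the minimum of 50 UMIs at a lower CPM than one seen only in Dox. The number of lower genes is therefore not read against the number of higher ones.

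The gene with the highest ratio was Trdv1, a delta chain segment, at 8.66 CPM (control) and 75.6 CPM (Dox), but 28 of its 48 Dox UMIs lay in 1 of 3 cells. Serpina3n, a secreted protease inhibitor, followed at 19.1 and 99.2 CPM, a log2 ratio of 2.36 (1.66 to 3.15), with UMIs in 22 control and 52 Dox T cells. A2m, a protease inhibitor of the extracellular space, was at 24.3 and 92.9 CPM, a log2 ratio of 1.92 (1.27 to 2.64). In fibroblasts the log2 ratios of these last 2 genes were 1.20 and 1.45, and in all other kept cells 3.08 and 1.99. The same transcripts were therefore higher in Dox in other cell types too, and the part of free RNA in the T cell values was not tested.

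Several of the other named increases were in genes that fibroblasts express more than T cells. Ccn1 and Ccn2, matricellular proteins, were at 62.4 and 192 CPM and at 58.9 and 150 CPM. Col3a1 was at 22.5 and 55.1 CPM, Ptn at 19.9 and 63.0 CPM in 16 and 8 cells, Alkal2 at 29.5 and 72.5 CPM, and Angpt1 at 31.2 and 72.5 CPM. For Alkal2, 1 control cell held 11 of 34 UMIs and 1 Dox cell 22 of 46, and without them its log2 ratio was 0.92 in place of 1.29. All 6 genes were more abundant in fibroblasts of both libraries, with Ccn1 at 1273 and 1628 CPM there. Of 6 fibroblast markers, 2 were higher and 4 lower in Dox T cells, with a median log2 ratio of -0.30 and a range from -0.91 to 1.10. Among them 1 was at least 2-fold higher, against 0.667% of all genes compared. The rule itself limits the fibroblast gene Dcn in these cells, and the part of fibroblast RNA was not tested. Sh3bp5, Mid1ip1 and Basp1 completed the 12 highest ratios, with log2 ratios of 1.42, 1.35 and 1.28. Most of these increases depended on the limits on Rpe65, Dcn and class II. Without those limits 9 of the 12 highest ratios fell under 2-fold, and that of Ccn1 was -0.080 in place of 1.62. Those of Col3a1, Basp1, Mid1ip1, Alkal2, Angpt1, Ccn2, Ptn and A2m were then 0.07, 0.09, 0.48, 0.51, 0.60, 0.64, 0.76 and 0.92 on the log2 scale. Trdv1, Serpina3n and Sh3bp5 stayed past 2-fold, at 3.40, 1.46 and 1.28.

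**Figure D4:**
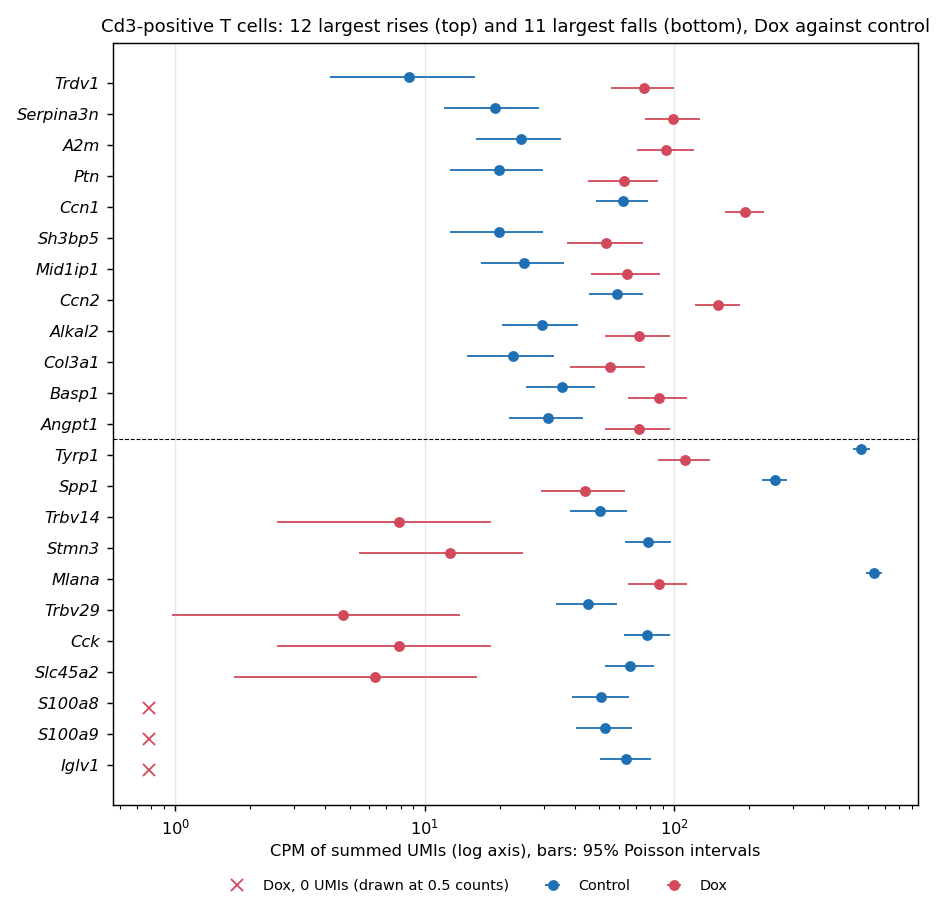
CPM of summed UMIs (log axis) in control (blue) and Dox (red) T cells for the 12 genes with the highest ratio and the 11 with the lowest, with 95% Poisson intervals; crosses mark 0 UMIs. Melanocyte genes such as Mlana and Tyrp1 fall from 632 to 86.6 CPM and from 562 to 110.3 CPM, and 3 genes have 0 UMIs in Dox.

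Pigment cell genes were among the decreases, ranking after Iglv1, S100a9 and S100a8. Mlana was at 632 CPM (control) and 86.6 CPM (Dox) in T cells, a log2 ratio of -2.86 (-3.29 to -2.47), and Tyrp1, a melanin enzyme, at 562 and 110.3 CPM, a log2 ratio of -2.34 (-2.73 to -1.99). Slc45a2, a melanosome transporter, was at 66.7 and 6.30 CPM. All 5 melanocyte markers were at least 2-fold lower, against 1.67% of all genes compared, and their sum went from 3468 to 781 CPM in T cells, from 2385 to 635 CPM in fibroblasts and from 4081 to 614 CPM in innate lymphocytes. Dct, the most abundant of them, was at 1369 and 353 CPM in T cells. These genes thus moved alike in unrelated cell types.

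Several other decreases rested on few cells. The immunoglobulin light chain segment Iglv1 had 74 UMIs in 10 control T cells and 0 in Dox, at least 13.6-fold lower, and it was at 24.98 and 0.0400 CPM in fibroblasts. S100a9 and S100a8, neutrophil and monocyte proteins, went from 61 and 59 UMIs to 0, at least 11.2-fold and 10.8-fold lower. The control cell with the most UMIs of each gene held 59 and 55 of them. Without the top cell of each gene their fitted log2 ratios were -1.46 and -2.31. Trbv29 went from 52 UMIs in 13 cells to 3 UMIs in 2 cells, a log2 ratio of -3.04 (-5.58 to -1.63), and Trbv14 from 58 UMIs in 7 cells to 5 UMIs in 3 cells. Spp1, a secreted phosphoprotein, was at 254 and 44.1 CPM in T cells and at 266 and 137 CPM in fibroblasts. In macrophages rich in C1q it went the other way, at 786 and 1136 CPM, a log2 ratio of 0.53. Cck and Stmn3 had log2 ratios of -3.18 and -2.57 in T cells and of -1.72 for both in fibroblasts.

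Among lists of T cell genes, the genes of naive and recirculating T cells were the group with every member higher in Dox. All 8 were higher, 1 of them by 2-fold or more, against 0.667% of all genes compared. Their median log2 ratio was 0.48, against -0.03 for all genes. Satb1 was at 69.3 CPM (control) and 151 CPM (Dox), a log2 ratio of 1.12 (0.68 to 1.57). Ccr7 was at 298.9 and 510.3 CPM, a log2 ratio of 0.77 (0.55 to 0.99), and S1pr1, the receptor by which T cells leave lymph nodes, at 107 and 181 CPM, a log2 ratio of 0.75 (0.38 to 1.13). Lef1 was at 125 and 176 CPM, Tcf7 at 116 and 159 CPM and Klf2 at 689 and 929 CPM. Il7r had an interval that includes 0, with a log2 ratio of 0.14 (-0.13 to 0.40).

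The sum of these 8 genes went from 1736 to 2481 CPM in T cells, a log2 ratio of 0.52 (0.42 to 0.61). In fibroblasts, where nearly all of it is Klf2, the log2 ratio was 0.17, and in innate lymphocytes the sum went from 1114 to 930 CPM. In macrophages rich in C1q it went from 727 to 1034 CPM, a log2 ratio of 0.51 and so as large as that of the T cells, with Klf2 at 652 and 959 CPM of it. Within classes, it went from 1863 to 2517 CPM in CD8 cells and from 1617 to 3002 CPM in CD4 cells. In the gamma delta class it was at 1060 and 1167 CPM, a log2 ratio of 0.16 (-0.54 to 0.77). The higher sum was thus seen within both co-receptor classes.

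The compared genes of the regulatory, inhibitory and gamma delta lists had lower values in Dox. All 4 compared genes of the regulatory list were lower, with a median log2 ratio of -0.33. Of these, Ctla4 alone reached 2-fold, against 1.67% of all genes compared. It was at 141 and 53.6 CPM, a log2 ratio of -1.38 (-1.98 to -0.86). Foxp3 had 26 and 4 UMIs, too few to be compared. The 4 inhibitory receptors, which include Ctla4 again, had a median of -0.43, with Tigit at 181 and 131 CPM and Pdcd1 at 139 and 106 CPM. The inhibitory receptor Lag3, also with too few UMIs to be compared, was not lower, with 19 and 21 UMIs (16.5 and 33.1 CPM). All 5 compared genes of the gamma delta list were lower over all T cells, with a median of -0.88. Only Cd163l1, at 81.4 and 36.2 CPM, reached 2-fold, again against 1.67% of all genes compared. The Dox values of this last list rest on few cells: 1 cell held 32 of the 57 Trdv4 UMIs, and 1 cell held 31 of the 54 Il17a UMIs. Trdv1, a delta segment outside this list, was higher in Dox. Within the 25 control and 6 Dox cells with a Trdv4 or Tcrg-V6 UMI, log2 ratios were 1.002 (0.50 to 1.47) for Il17a and 0.21 for Cd163l1. That of Trdv4, 0.48 (0.02 to 0.90), only describes the class, because Trdv4 chose its cells. Single Dox cells held 32 of the 57 Trdv4 and 31 of the 53 Il17a UMIs there, so no direction is read.

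Effector and cytokine genes moved in both directions. Of 10 cytotoxic genes 3 were higher and 7 lower, with a median log2 ratio of -0.11. None reached 2-fold, and with 0.667% of all genes higher and 1.67% lower, a list of this size would hold few or none. Of 9 cytokine and chemokine genes 4 were higher and 5 lower, with Ifng, the macrophage-activating cytokine, at 90.1 and 45.7 CPM, a log2 ratio of -0.96 (-1.63 to -0.37), and UMIs in 52 control and 21 Dox cells. Ccl5 was at 6402 and 5672 CPM and Ccl4 at 121 and 175 CPM. Of 10 tissue residence and homing genes 5 were higher and 5 lower, with Ccr2, a receptor of recruited leukocytes, at 90.1 and 52.0 CPM. The strip plot shows the spread of each list around the median of all genes.

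**Figure D5:**
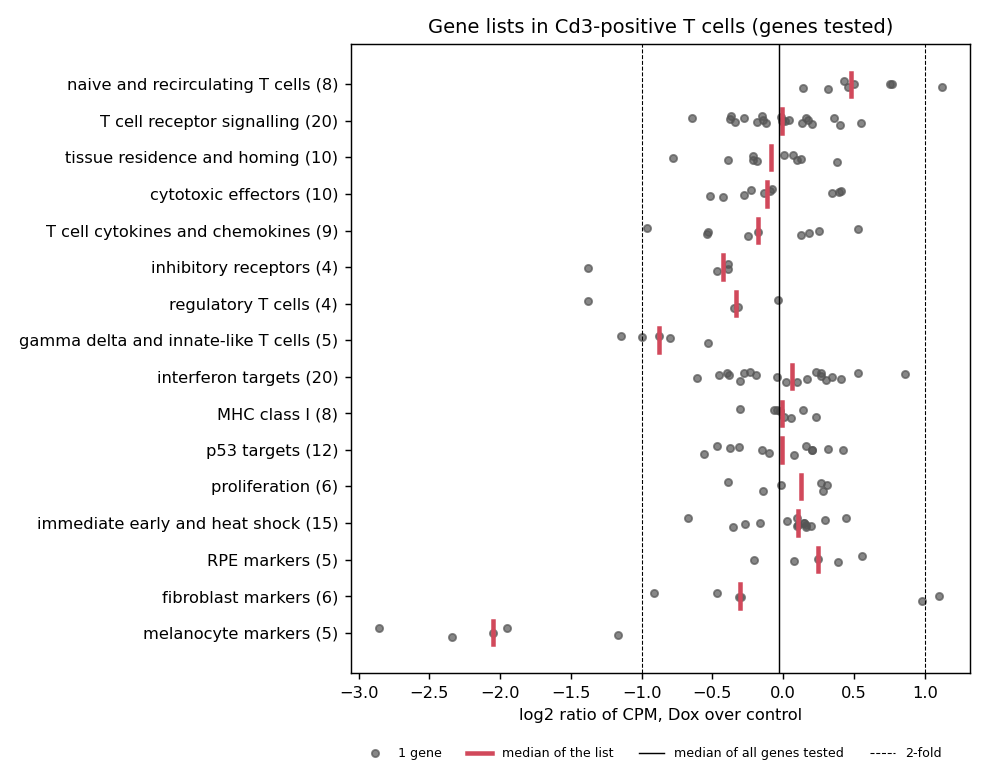
Log2 ratio of CPM, Dox over control, of each compared gene (points) of 16 lists in T cells, with the median of each list (red bar), the median of all 4500 genes (solid line) and 2-fold (dashed lines). The 8 naive and recirculating genes all lie above 0 with a median of 0.48, and the 5 melanocyte markers all lie below -1.

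Signalling, interferon and DNA damage genes went in both directions. No compared gene of these lists reached 2-fold, and with 0.667% and 1.67% of all genes past it, lists of this size would hold few or none. Of 20 receptor signalling genes 9 were higher and 11 lower, with a median log2 ratio of -0.01 and a range from -0.65 to 0.55; Cd6, a receptor that tunes activation, was at 126.5 and 80.3 CPM, and Txk, a Tec family kinase, at 92.7 and 135.5 CPM. Of 20 interferon targets 11 were higher and 9 lower, with a median of 0.06 and a range from -0.61 to 0.86. Isg15 was at 154 and 117 CPM and Rtp4 at 21.7 and 39.4 CPM. Of 12 targets of p53, 6 were higher and 6 lower, with a median of -0.01 and a range from -0.56 to 0.42. Cdkn1a, the cell cycle inhibitor p21 and the best known of them, was at 131 and 175 CPM, a log2 ratio of 0.42 (0.05 to 0.78), while Rps27l was at 110.0 and 74.0 CPM, a log2 ratio of -0.56 (-1.09 to -0.08).

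Smaller lists gave the following values. Of 8 MHC class I genes 4 were higher and 4 lower, with a median log2 ratio of -0.01. Of 15 immediate early and heat shock genes 11 were higher and 4 lower, with Atf3, a stress-induced factor, at 349 and 219 CPM, a log2 ratio of -0.67 (-0.96 to -0.39). The 3 compared genes of type 2 immunity were lower, with a median of -0.48. The list of natural killer cell markers summed to 456 and 539 CPM in T cells against 7092 and 7900 CPM in innate lymphocytes, and its most abundant member in T cells was Fcer1g, at 217 and 265 CPM.

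Cells with proliferation transcripts were rare in both libraries. A UMI of Mki67 or Top2a was found in 5.80% of control and 4.76% of Dox T cells, against 1.17% and 1.02% of fibroblasts. The 6 compared proliferation genes had a median log2 ratio of 0.13. Of 80 ribosomal protein genes 69 were higher in Dox, with a median of 0.09, and of 12 mitochondrially encoded genes 10 were lower, with a median of -0.18. The 5 compared RPE markers had a median of 0.24, and their sum went from 4531 to 6305 CPM in T cells and from 3067 to 4778 CPM in fibroblasts.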

How the data were processed

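Single-cell RNA was measured in 1 control and 1 Dox library (10x 5′ kit). The authors deposited UMI counts per gene and cell with barcodes and gene names, made with Cell Ranger on mm10; the file header names version 4.0.0, the annotation version is not given in the sources used here, and the counts are not normalized or corrected for free RNA. The control file holds 20381 cells and 117731270 UMIs, the Dox file 15649 cells and 103997248 UMIs.

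Cells with more than 500 UMIs, 200 to 6000 genes and a mitochondrial share below 20% were kept. UMIs were summed over cells and scaled to CPM. Log2 ratios had 0.5 counts added to each sum. Genes with at least 50 UMIs over both libraries were compared between libraries, and genes with at least 50 CPM in the T cells of both libraries, or in either cell type for innate lymphocytes, between cell types. With 1 library per condition no test was run: a gene was called past 2-fold (8-fold against all other cells). Where a group had 0 UMIs, ratios were bounded with a floor of 3 counts per library. The named genes were the 20 with the largest ratio to other cells, the 12 highest and 12 lowest ratios between libraries, 10 each way against innate lymphocytes, and listed T cell genes; a pair of these genes is not reported here. Innate lymphocytes had at least 3 UMIs of natural killer and granzyme A genes, and macrophages at least 5 of C1q genes. No doublet caller was run; members with very many UMIs, or with macrophage or endothelial UMIs, were left out as alternatives instead. Shares were also computed after thinning each cell to 1000 UMIs, for fibroblasts in every 10th cell only. Cells with fewer UMIs were dropped there. The members and lists were chosen with earlier results of these data known. Scripts were tested on simulated data and ran in Python 3.11.15 with scipy 1.17.1, pandas 2.3.3, matplotlib 3.10.9 and numpy 2.4.6.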

Additional observations from a re-analysis of the deposited data

Results flagged for a closer look

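The share of T cells was lower in the Dox than in the control library, with a ratio of 0.697, while that of Cd3-negative innate lymphocytes was higher, with a ratio of 1.22. The ratio of T cells per innate lymphocyte, Dox over control, was 0.573 with a counting interval of 0.381 to 0.864; there was 1 library per condition, so the difference was not tested across animals.

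The limits on Rpe65, Dcn and class II left out 81 control and 25 Dox cells with at least 2 Cd3 UMIs. They were counted among the other kept cells, and among the T cells only where these limits were dropped. The Dcn limit was failed by 70 and 24 of them, counted whether or not they also failed another limit. They had a median of 8975 and 9962 UMIs per cell, Dcn at 5829 and 5050 CPM, Cd52 at 735 and 745 CPM and Lck at 158 and 156 CPM, so that both T cell and fibroblast transcripts were present. Dcn was higher in control (5670 to 5990 CPM) than in Dox (4797 to 5314 CPM), and the intervals of Cd52 and Lck overlapped.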

How the results depend on the processing

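No paired analysis was possible because each condition has 1 library. The ratio of T cell shares, the CD8 share, the Trdv4 or Tcrg-V6 share and the number of genes 8-fold higher than in other cells stayed within their counting interval, or for the count within 1.5 times, in the 6 or 7 alternatives run for each. The 3 list medians stayed within an order-statistic interval over their genes in 12 alternatives. They ranged from 0.41 to 0.84 for naive and recirculating genes, from -0.07 to 0.18 for interferon targets and from -0.18 to 0.35 for cytotoxic effectors, so the last 2 have no settled sign. Counts of genes past 2-fold changed more. The 75 genes lower in Dox became 159 without the limits on Rpe65, Dcn and class II, 26 with members thinned to 1000 UMIs and 30 with a gene minimum of 100 UMIs. The 30 genes higher in Dox became 2 when thinned, 51 as a mean of each cell's own CPM and 6 with a gene minimum of 100 UMIs. Thinning and the higher minimum leave fewer genes to compare; the cause of the others was not tested. A mitochondrial share below 10%, and a complexity (log10 genes over log10 UMIs) above 0.8, left out 0 T cells in either library. Gene values, gene counts between libraries and list medians could therefore not change under these alternatives, which add nothing to the tallies of stability. Of 288 values of the 24 named genes, these included, 266 moved by less than their interval, 21 moved further and 1 reversed. The reversed value was the log2 ratio of Ccn1, at -0.080 with no limits on Rpe65, Dcn and class II. Of the 12 highest ratios, 9 fell under 2-fold with no such limits and 4 (Ptn, Ccn2, Col3a1 and Angpt1) without the 5% of members with the most UMIs. The alternatives for the naive list, the Trdv4 or Tcrg-V6 share and the count against other cells, and the values without the single top cell, were chosen after seeing the data. Depth limits Cd4, Foxp3, Trdc and the receptor constant genes, which had no UMI in many T cells.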
